A study of Mus musculus with 16 samples.

Results

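The cerebral cortex of mice in which Rai1 was deleted with Nestin-Cre was compared with wild-type cortex at 3 weeks of age, by RNA sequencing of 2 libraries labelled knockout and 2 labelled wild type. These are 4 of the 16 libraries of a study that also covered striatum and hypothalamus. Genes with at least 1 RPKM (reads scaled to the length of the gene and the depth of the library) in at least 2 of the 4 cortex libraries were described, which gave 10945 of 24176 gene symbols. Both cortex groups were B6/FVB F1 mice, labelled wild type and Nestin-Cre;Rai1CKO. The other sets used Gad2-Cre;Rai1CKO mice for striatum (B6/FVB F1, 3 and 12 weeks) and Vglut2-Cre;Rai1CKO mice for hypothalamus (B6/129 F1, 8 weeks), each again with 2 libraries labelled wild type and 2 labelled knockout. The sources used here do not give whether the wild-type mice carried Cre or floxed Rai1 alleles, which part of Rai1 was deleted, or whether replicates were separate animals. The p-values therefore reflect only how far the 16 libraries scatter within their groups, and that scatter may be technical.

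Rai1 encodes a large nuclear protein that binds chromatin in neurons, and loss of a single copy causes Smith-Magenis syndrome, a disorder of development, behaviour, weight and sleep. Nestin-Cre is active in neural progenitors, so that the neurons, astrocytes and oligodendrocytes that descend from them carry the deletion, while microglia and the endothelium of vessels arise from other lineages. The third postnatal week of the mouse cortex is a time of rapid myelination and of synapse formation. Whole tissue was sequenced, so fewer cells of a type and less RNA per cell cannot be told apart in any value below.

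Depth, from the step that a read makes in the RPKM of single-exon genes, was estimated at 22117039 to 29308647 reads in the cortex libraries. The search had an upper bound, so a greater depth, at which steps of 0.5 read would be whole reads, was not considered. Cortical excitatory neuron genes marked the tissue: Slc17a7, a vesicular glutamate transporter, was at 118 to 148 scaled RPKM in the 4 cortex libraries, at 1.36 to 13.9 in striatum and at 0.0427 to 0.109 in hypothalamus. Values below are RPKM divided by a median-ratio factor per library (0.918 and 0.999 for wild-type replicates 1 and 2, 1.02 and 0.870 for knockout replicates 1 and 2), called scaled RPKM. Log2 changes are knockout minus wild type on the log2(scaled RPKM + 0.5) scale, which understates changes of low genes, and adjusted p-values are from limma with Benjamini-Hochberg adjustment over the 10945 genes.

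The knockout replicates differed from each other more than the wild-type replicates did. Across genes, which are not independent replicates, Pearson's r was 0.966 between the knockout libraries and 0.987 between the wild-type libraries. Between replicates, 72 against 10 genes differed by more than 1 on the log2 scale. The typical SD between replicates was 0.157 in knockout cortex, 0.0987 in wild-type cortex and 0.0608 to 0.126 in the other groups. The test shares its spread per gene over all groups, so standard errors and p-values rest on a spread typically smaller than that of knockout cortex. Knockout replicate 1 stood apart: its ribosomal protein genes lay 0.32 above the mean of the 4 libraries at the median, against -0.23 in knockout replicate 2, -0.09 in wild-type replicate 1 and -0.02 in wild-type replicate 2. Its oxidative phosphorylation genes lay 0.315 above that mean, against -0.15 in knockout replicate 2. Rpph1, the RNA of ribonuclease P, was at 821, 1029, 1678 and 732 scaled RPKM in wild-type replicates 1 and 2 and knockout replicates 1 and 2.

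Rai1 itself was at 4.74 and 5.70 scaled RPKM in the wild-type libraries and at 4.20 and 3.48 in the knockout libraries. Both knockout values lay below both wild-type values, and the change of -0.40 (SE 0.17) did not pass the test (adjusted p = 0.470). The authors' table gives a value for the whole gene only, so reads from a deleted part cannot be separated from the rest. In the other sets the knockout libraries lay above the wild-type ones for Rai1, at 7.54 and 6.66 against 3.77 and 2.85 in striatum at 3 weeks, at 12.9 and 15.0 against 6.66 and 5.13 at 12 weeks, and at 7.56 and 5.29 against 3.09 and 3.14 in hypothalamus. The cortex change minus the mean of those 3 changes was -1.43 on the log2 scale (SE 0.20, adjusted p = 0.0115). Libraries are called by their labels throughout. Med9 and Srebf1, the tested genes on each side of Rai1, had log2 changes of -0.03 and 0.15.

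In cortex, 39 genes passed an adjusted p of 0.05, which is 0.356% of the 10945 tested. Of these, 14 were higher in the knockout libraries (0.128%) and 25 were lower (0.228%), and 1084 genes (9.9%) had an unadjusted p under 0.05. Counts of called list members below are to be read beside the shares of 0.128% and 0.228%. The knockout and wild-type libraries did not overlap for any of the 39, as was so for 31.1% of all tested genes. The changes ran from -2.23 to -0.54 among the lower genes, with a median of -0.74, and from 0.59 to 1.69 among the higher ones, with a median of 0.79. The median over all tested genes was -0.004.

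**Figure D1:**
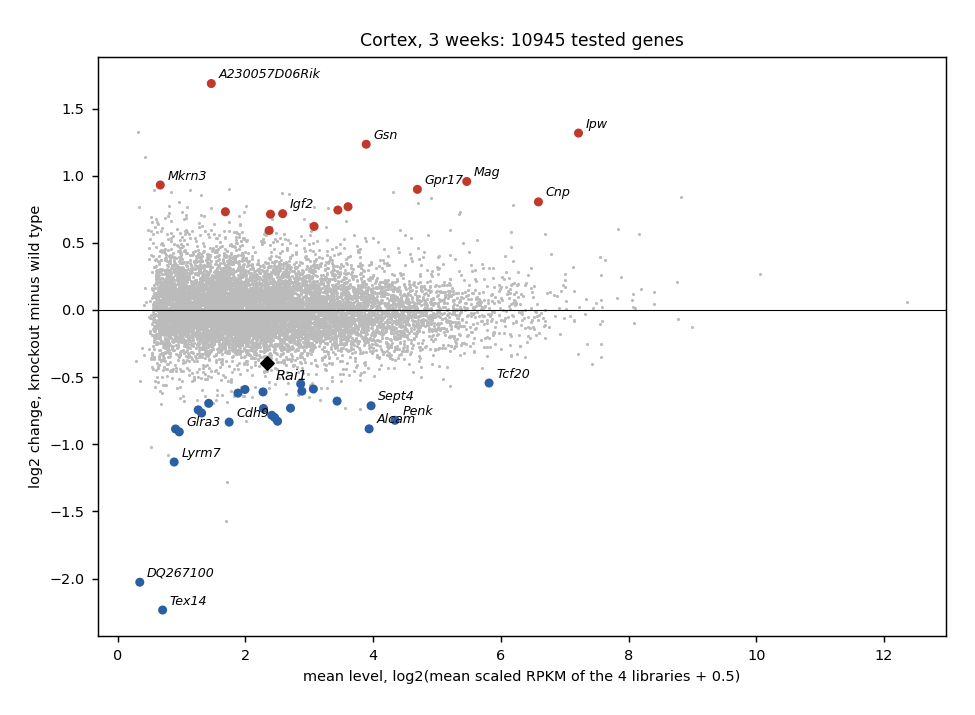
Log2 change (knockout minus wild type, vertical axis) of 10945 genes against the mean level of the 4 cortex libraries (horizontal axis, log2 of scaled RPKM + 0.5). Red points are the 14 genes called higher, blue points the 25 called lower, grey points the rest, and the black diamond is Rai1 at -0.40.

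These calls depended on single libraries. Tex14, A230057D06Rik and Gsn were called whichever of the 4 cortex libraries was left out, and Alcam with any left out but wild-type replicate 1 (adjusted p = 0.0574). Another 8 genes, Cdh9, Crebrf, Glra3, Hccs, Ipw, Penk, Sept4 and Slc16a1, were called in 2 of these 4 fits. The remaining 27, among them Mag, Cnp, Mog, Gpr17, Igf2, Mkrn3, Htr2a, Htr2c, Cdh7, Cdh8, Epha7 and Tcf20, were called in 1 of them, the fit without knockout replicate 2, and lost the call without any other cortex library. Leaving out wild-type replicate 1 gave 3 calls, and leaving out wild-type replicate 2 gave 9. Leaving out knockout replicate 1 gave 13 calls, and leaving out knockout replicate 2 gave 818. In a limma fit of the cortex libraries alone 3 genes passed. These were Tex14, A230057D06Rik and DQ267100, which rests on few reads, while Gsn did not pass (adjusted p = 0.179). With RPKM as deposited 6 genes passed.

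The steepest decrease was that of Tex14, a gene for a protein of the bridges between germ cells. It was at 2.11 and 2.26 scaled RPKM in the wild-type libraries and at 0.0681 and 0.0722 in the knockout libraries, a change of -2.23 (SE 0.11, adjusted p = 1.15e-07). The wild-type level was not shared by the other B6/FVB tissue: all 8 striatal libraries of either genotype lay between 0.0124 and 0.0241. The 4 hypothalamic libraries, from B6/129 mice, lay at 2.45 and 2.50 with the wild-type label and at 2.45 and 2.58 with the knockout label. Tex14 was thus high in the wild-type cortex and in all hypothalamic libraries and near 0 in the rest, with the genotype label separating the levels in cortex alone. Between cortex and striatum at 3 weeks, region and driver differ together and cannot be told apart, and hypothalamus differs in strain and age as well.

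The gene next to Tex14 among those tested, in the order of the GRCm38 annotation, was also called. Sept4, for a septin that forms cytoskeletal filaments, was at 18.7 and 19.1 in the wild-type and at 11.3 and 11.4 in the knockout libraries (-0.71, SE 0.10, adjusted p = 0.0103). Ppm1e, a protein phosphatase gene on the other side of Tex14, was at 33.0 and 30.1 against 27.8 and 35.8, with a change of 0.00. Mtmr4, next beyond Sept4, was at 13.6 and 14.9 against 10.5 and 11.5 without passing (-0.36, adjusted p = 0.172). The Tex14 change in cortex minus that in striatum at 3 weeks was -2.23 (adjusted p = 1.32e-05). Minus the mean of the other 3 sets, the Tex14 and Sept4 changes were -2.24 and -0.82 (adjusted p = 8.05e-07 and 0.0115).

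The 2 largest increases were in the imprinted region whose human counterpart is lost in Prader-Willi syndrome, where paternal copies are expressed. Of 5 tested genes listed for this region, 3 were called higher and none lower, against 0.128% and 0.228% of all tested genes. The median change of the 5 was 0.93. A230057D06Rik, a long non-coding RNA, was at 0.877 and 0.744 scaled RPKM in the wild-type and at 3.65 and 3.78 in the knockout libraries (1.69, SE 0.15, adjusted p = 7.01e-05). Ipw, a non-coding RNA of the same region, was at 92.5 and 76.3 against 183 and 241 (1.32, SE 0.22, adjusted p = 0.0202), and Mkrn3, for a zinc finger protein of the makorin family, at 0.667 and 0.518 against 1.48 and 1.68 (0.93, SE 0.16, adjusted p = 0.0202). Neither knockout library overlapped a wild-type library for these 3. Ndn, a paternally expressed gene between them, was at 55.6 and 62.8 against 78.4 and 56.3, and Ube3a, expressed from the maternal copy in neurons, at 14.7 and 11.7 against 10.7 and 13.3, and the groups overlapped for both. Snhg14, the host transcript whose annotation neighbours Ipw, is not on the list and was at 12.5 and 9.38 against 8.69 and 12.7. Other tested transcripts between Ube3a and Mkrn3 are also off the list and were not called. They were C230091D08Rik (-0.07), B230209E15Rik (0.72, adjusted p = 0.135) and A330076H08Rik (0.08).

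For A230057D06Rik the cortex stood apart in its wild-type libraries. The other 12 libraries of the study lay between 2.54 and 5.57, which covers the knockout cortex but not the wild-type cortex. Its change was larger in cortex than in striatum at 3 weeks by 1.45 (SE 0.21, adjusted p = 0.0200) and larger than the mean of the other 3 sets by 1.45 (SE 0.17, adjusted p = 0.00298). Ipw was at 54.4 to 77.8 in the libraries of striatum at 3 weeks and at 193 to 356 in the other striatal and hypothalamic libraries. The Ipw change was above the mean of the other sets by 1.43 without passing (adjusted p = 0.0506). Transcripts of this region overlap, and the sources used here name neither the read counter nor its strand setting, so reads of neighbouring and antisense transcripts may be shared between these names. Without wild-type replicate 1 or wild-type replicate 2, A230057D06Rik passed and Ipw and Mkrn3 did not.

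Several genes of oligodendrocytes, the cells that wrap axons in myelin, were higher. All 22 myelin and oligodendrocyte genes of the list were tested. Of these, 4 were called higher and 0 lower, against 0.128% and 0.228% of all tested genes. Positive estimates were found for 21, against 49.3% of all tested genes, with a median change of 0.52. Mag, an adhesion protein of the innermost myelin wrap, was at 26.7 and 32.2 scaled RPKM in the wild-type and at 65.9 and 49.97 in the knockout libraries (0.96, SE 0.16, adjusted p = 0.0202). Cnp, an enzyme that keeps cytoplasmic channels in myelin open, was at 62.8 and 76.3 against 134 and 110 (0.80, SE 0.14, adjusted p = 0.0244), and Mog, on the outer surface of the sheath, at 8.61 and 8.39 against 15.7 and 14.1 (0.77, SE 0.13, adjusted p = 0.0202). Gsn, for the actin-severing protein gelsolin that oligodendrocytes make in quantity, was at 7.54 and 9.15 against 22.3 and 18.3 (1.23, SE 0.13, adjusted p = 0.000501). Both knockout libraries were above both wild-type libraries for 16 of the 22, against 15.6% of all tested genes.

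Other abundant myelin transcripts had positive estimates that did not pass. Mbp, which compacts the membranes, was at 213 and 251 against 317 and 369 (0.56, adjusted p = 0.368), and Cldn11, of the tight junctions in the sheath, at 49.2 and 57.3 against 89.1 and 94.2 (0.78, adjusted p = 0.0529). Car2, carbonic anhydrase 2, was the exception with a negative estimate, at 19.2 and 21.2 against 18.8 and 13.4. The 22 genes summed to 860 and 919 in the wild-type libraries, against 1376 and 1535 for knockout. In wild-type striatum of the same age and strain it was 3706 and 2537. The median change was 0.61 without knockout replicate 1 and 0.53 without knockout replicate 2, with 1 and 5 genes called. With either wild-type library left out 1 gene was called, and the median ran from 0.49 to 0.51 under other scalings.

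Precursors of these cells were covered by a second list of 14 genes, all tested, of which 1 was called higher and 0 lower. Gpr17, a receptor of precursors on the way to maturity, was at 16.6 and 18.4 in the wild-type and at 36.7 and 29.7 in the knockout libraries (0.90, SE 0.16, adjusted p = 0.0244). The transcription factor genes Olig2 and Sox10 were at 5.41 and 6.25 against 9.17 and 9.56 (0.64, adjusted p = 0.135) and at 6.63 and 8.06 against 9.10 and 9.35 (0.32, adjusted p = 0.706). Pdgfra, the growth factor receptor of early precursors, was at 7.16 and 7.09 against 7.80 and 8.63 (0.19, adjusted p = 0.656). The list's median was 0.48, and its summed level was 96.7 and 106 against 146 and 144. Slc16a1, a transporter of lactate that oligodendrocytes and vessels use and a member of no list, was at 7.74 and 7.57 against 12.6 and 13.7 (0.74, SE 0.11, adjusted p = 0.0138).

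**Figure D2:**
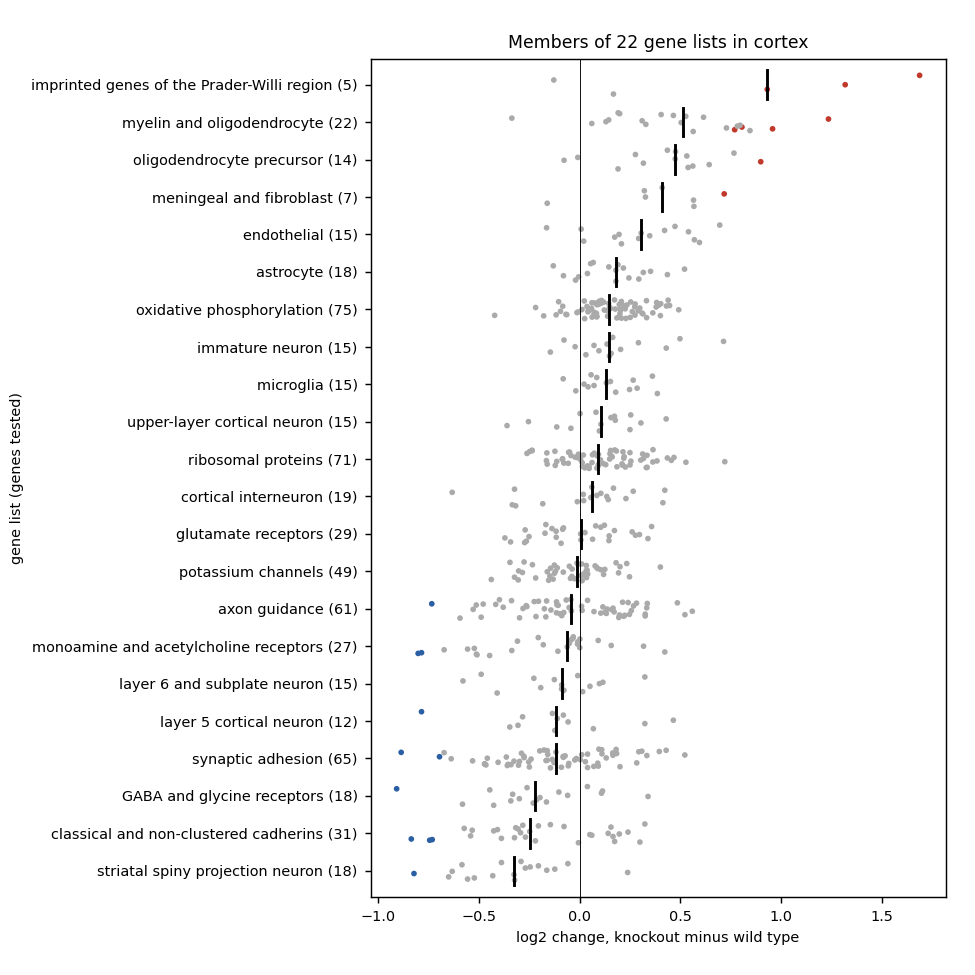
Log2 change (horizontal axis) of every tested member of 22 gene lists, with the number tested in parentheses. Each point is a gene, red where called higher and blue where called lower, and each black bar is the list's median, which ran from -0.32 for striatal projection neuron markers to 0.93 for the Prader-Willi region.

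Promoters are shown for the myelin genes Mag, Mog and Cnp and for the cadherin genes Cdh7, Cdh8 and Cdh9 described next. They were chosen because these members of 2 lists were called in opposite directions. Gsn, also called on the myelin list, is not shown. Each sequence is the 250 bases before the outermost RefSeq transcript start in the mouse build GRCm38.p6, 5′ to 3′ on the strand of the gene. RefSeq has 3 windows for Mag and 3 for Cdh7. Capitals mark ACAAAG or its reverse complement CTTTGT, the core recognised by SOX factors such as Sox10, searched on both strands. The windows are chr7:30914923-30915172 on the minus strand, chr17:37023399-37023648 on the minus strand, chr11:100574689-100574938 on the plus strand, chr1:109982650-109982899 on the plus strand, chr8:99416472-99416721 on the minus strand and chr15:16728665-16728914 on the plus strand.
Mag: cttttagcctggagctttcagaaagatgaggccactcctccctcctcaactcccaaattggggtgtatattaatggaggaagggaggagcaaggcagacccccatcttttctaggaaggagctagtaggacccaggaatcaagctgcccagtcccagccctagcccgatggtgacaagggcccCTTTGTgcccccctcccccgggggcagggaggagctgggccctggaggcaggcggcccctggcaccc
Mog: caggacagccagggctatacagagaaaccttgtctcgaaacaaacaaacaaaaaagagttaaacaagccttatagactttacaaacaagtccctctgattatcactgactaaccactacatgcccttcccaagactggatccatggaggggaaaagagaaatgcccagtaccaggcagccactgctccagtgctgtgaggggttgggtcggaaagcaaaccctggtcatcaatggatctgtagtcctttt
Cnp: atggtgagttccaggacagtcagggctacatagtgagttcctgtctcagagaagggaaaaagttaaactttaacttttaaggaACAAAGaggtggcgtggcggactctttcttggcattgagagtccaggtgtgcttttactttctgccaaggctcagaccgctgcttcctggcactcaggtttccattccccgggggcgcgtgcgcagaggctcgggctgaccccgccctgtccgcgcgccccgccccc
Cdh7: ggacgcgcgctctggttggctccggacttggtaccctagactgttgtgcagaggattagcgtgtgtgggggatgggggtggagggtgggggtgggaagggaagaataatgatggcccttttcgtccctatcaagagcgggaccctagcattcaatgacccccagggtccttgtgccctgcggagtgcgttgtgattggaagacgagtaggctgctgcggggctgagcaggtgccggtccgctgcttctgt
Cdh8: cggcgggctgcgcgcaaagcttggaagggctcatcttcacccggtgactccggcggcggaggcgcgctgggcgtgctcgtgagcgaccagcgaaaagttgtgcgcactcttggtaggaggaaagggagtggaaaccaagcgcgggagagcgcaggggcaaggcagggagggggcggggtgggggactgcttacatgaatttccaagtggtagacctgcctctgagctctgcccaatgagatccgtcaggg
Cdh9: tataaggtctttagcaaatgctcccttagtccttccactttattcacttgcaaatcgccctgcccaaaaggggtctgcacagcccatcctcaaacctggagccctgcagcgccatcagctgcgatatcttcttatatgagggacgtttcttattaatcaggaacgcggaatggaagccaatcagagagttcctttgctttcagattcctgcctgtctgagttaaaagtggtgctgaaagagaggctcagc

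The core was found once in the Mag window, with its first base at -67 from the start, and once in the Cnp window, at -167, and the letters were not in the other 4 windows. It was present in 16.5% of the 27018 RefSeq windows of this length. The windows of Cnp, Cdh7 and Cdh8 held 13, 13 and 20 CpG dinucleotides, those of Mag, Mog and Cdh9 held 3, 2 and 6, and the median over all windows was 6. These are descriptions of the letters only. A comparison of promoter content between called and other genes was void, because 79.3% of the tested genes and 76.0% of the lower genes had a window, too few for such a check, although 92.9% of the higher genes had one.

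Other non-neuronal markers had mostly positive estimates. The endothelial list had 0 calls among 15 genes, 14 positive estimates and a median of 0.31. Vwf, the clotting factor of vessel walls, was at 0.475 and 0.712 against 1.32 and 1.20 (0.69, adjusted p = 0.0535) and Cldn5, of the blood-brain barrier, at 14.5 and 18.4 against 30.3 and 20.5 (0.59, adjusted p = 0.199). Of 7 tested meningeal and fibroblast genes 1 was called higher and none lower, with a median of 0.41. This was Igf2, a growth factor of the leptomeninges and choroid plexus that is imprinted, at 4.10 and 3.96 against 7.13 and 6.77 (0.72, SE 0.14, adjusted p = 0.0353). Ttr, the transthyretin of choroid plexus, was at 11.1 and 15.97 against 23.6 and 26.4 (0.88, adjusted p = 0.0907). Summed over the 12 listed genes in each case, meningeal markers were at 21.0 and 20.2 against 27.0 and 27.9. Choroid plexus markers summed to 14.8 and 21.8 against 30.2 and 33.0, and no marker of either list was at 0. Ttr made up most of the choroid plexus sum in each library, and 3 genes of that list were tested. The part of meningeal and choroid plexus tissue in the changes of other genes was not tested. All 6 globin genes of the blood list were listed at 0 in every cortex library.

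Astrocyte genes had 14 positive estimates among 18 and a median of 0.18, which was 0.12 without knockout replicate 1 and 0.26 without knockout replicate 2. Microglia genes had 13 among 15 and a median of 0.13, and neither list had a call. Microglia are of another lineage than the cells that Nestin-Cre reaches. Cx3cr1, a receptor of microglia, was at 7.72 and 7.20 against 10.4 and 9.43 (0.39, adjusted p = 0.321). The median of the microglia list was 0.03 without knockout replicate 1 and 0.24 without knockout replicate 2.

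Several genes of neuronal adhesion were lower. Of 31 tested classical and non-clustered cadherins, which bind neurons to each other through calcium-dependent contacts, 3 were called lower and 0 higher. The shares over all tested genes were 0.228% and 0.128%. Negative estimates were found for 21 of the cadherins, against 50.7% of all tested genes, with a median of -0.25. Cdh9, which takes part in synapse matching in the hippocampus, was at 4.10 and 3.50 scaled RPKM in the wild-type and at 1.84 and 1.97 in the knockout libraries (-0.83, SE 0.12, adjusted p = 0.0134). Cdh7 was at 2.68 and 2.32 against 1.28 and 1.30 (-0.74, SE 0.12, adjusted p = 0.0202). Cdh8 was at 8.26 and 6.996 against 3.85 and 4.98 (-0.73, SE 0.12, adjusted p = 0.0202). All 3 are type II cadherins. Cdh18, of the same class, was at 7.38 and 6.66 against 4.25 and 5.11 (-0.54, adjusted p = 0.212). Other type II members had estimates of either sign without passing, such as Cdh10 (-0.39), Cdh11 (-0.32), Cdh20 (0.06) and Cdh24 (0.20). Cdh2, the N-cadherin of most neurons, was at 7.71 and 7.43 against 7.09 and 8.01 (-0.01). Dropping wild-type replicate 1 or knockout replicate 1 left 0 calls on the list, dropping wild-type replicate 2 left 1, and dropping knockout replicate 2 gave 10. The list's median was -0.12 without knockout replicate 1 and -0.34 without knockout replicate 2. Among the 43 clustered protocadherins tested none was called, and their median was 0.02, or -0.06 to 0.08 with 1 library left out.

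Adhesion molecules outside the cadherins were called lower too. Alcam, an immunoglobulin-type adhesion molecule of growing axons, was at 21.0 and 17.7 against 9.48 and 11.02 (-0.89, SE 0.11, adjusted p = 0.00175). The difference between its cortex change and that in striatum at 3 weeks was -0.97 (SE 0.15, adjusted p = 0.0335), where it was at 28.2 and 30.8 against 31.0 and 31.6. Cntnap5b, of the neurexin superfamily, was at 2.94 and 2.69 against 1.40 and 1.71 (-0.70, SE 0.11, adjusted p = 0.0202). In the order of the GRCm38 annotation it lies 12 tested genes from Cdh7, which was also called lower. Alcam and Cntnap5b were the 2 calls, both lower, among 65 synaptic adhesion genes, against 0.228% of all tested genes called lower. The list's median was -0.12. Without knockout replicate 1 that median was -0.06 with 1 call, and without knockout replicate 2 it was -0.23 with 12 lower and 3 higher. Neither gene was called without wild-type replicate 1. Epha7, a receptor for ephrins that steers axons, was at 5.81 and 5.34 against 2.95 and 3.37 (-0.73, SE 0.13, adjusted p = 0.0202). It was the single call among 61 axon guidance genes, whose median was -0.04 and turned to 0.04 without knockout replicate 1. Sema3a, a secreted guidance cue, was at 2.79 and 2.24 against 1.35 and 1.64 without passing (-0.59, adjusted p = 0.1999).

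Serotonin receptors coupled to Gq were the calls among 27 tested monoamine and acetylcholine receptors. With 2 lower and 0 higher, the shares over all tested genes were 0.228% and 0.128%. Htr2a was at 6.71 and 6.22 in the wild-type and at 3.09 and 3.94 in the knockout libraries (-0.80, SE 0.14, adjusted p = 0.0244). Htr2c was at 6.502 and 5.97 against 3.35 and 3.47 (-0.78, SE 0.13, adjusted p = 0.0202). The list's median was -0.06, or -0.17 to -0.09 with 1 library left out, with 21 negative estimates, and 5 members were called without knockout replicate 2 and 0 without any other cortex library. Glra3, a glycine receptor subunit, was at 2.29 and 1.802 against 0.814 and 0.891 (-0.91, SE 0.14, adjusted p = 0.0162). It was the single call among 18 GABA and glycine receptor genes, whose median of -0.22 was -0.09 without knockout replicate 1 and -0.39 without knockout replicate 2. None of 29 glutamate receptor genes, 49 potassium channel genes or 27 sodium and calcium channel genes was called, with medians of 0.00, -0.01 and -0.04 that took either sign with 1 library left out.

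Markers of striatal projection neurons mostly had negative estimates. Of 18 tested, 1 was called lower and 0 higher, 17 had negative estimates, and the median was -0.32. The called gene was Penk, the precursor of the enkephalin opioid peptides, at 23.8 and 26.8 in the wild-type and at 16.9 and 11.7 in the knockout libraries (-0.82, SE 0.16, adjusted p = 0.0382). Drd1 and Drd2, the dopamine receptors that divide these neurons, were at 8.43 and 9.67 against 5.88 and 6.09 (-0.56, adjusted p = 0.0639) and at 3.25 and 3.84 against 2.42 and 2.20 (-0.52, adjusted p = 0.109). The sum over all 22 listed genes was 242 and 254 in wild-type, 206 and 186 in knockout and 2138 and 2074 in wild-type striatum of the same age, and none was at 0 in a cortex library. The part of striatal tissue in these values was not tested. Median changes were smaller for cortical neuron classes: 0.11 for 15 upper-layer genes, -0.12 for 12 layer 5 genes, -0.09 for 15 layer 6 and subplate genes and 0.06 for 19 interneuron genes, with 0 calls but for Htr2c on the layer 5 list. With 1 library left out these medians ran from 0.02 to 0.21, from -0.14 to -0.04, from -0.16 to -0.08 and from 0.03 to 0.09.

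Other lower genes were of mixed function. Lyrm7, an assembly factor of respiratory complex III, was at 1.86 and 2.19 against 0.469 and 0.863 (-1.13, SE 0.19, adjusted p = 0.0202). Hccs, the enzyme that attaches heme to cytochrome c, was at 7.72 and 5.81 against 3.25 and 3.88 (-0.83, SE 0.12, adjusted p = 0.0134). Both act in the mitochondrion, while none of 75 tested oxidative phosphorylation genes was called. That list's median of 0.15 was -0.07 without knockout replicate 1 and 0.40 without knockout replicate 2, where 25 were called higher. Prr16 was at 2.08 and 1.76 against 0.609 and 1.04 (-0.89, adjusted p = 0.0475). Dgkb, a diacylglycerol kinase, was at 13.7 and 11.9 against 6.93 and 8.74 (-0.68, adjusted p = 0.0344). DQ267100, a small nucleolar RNA gene of 71 bases, was at 1.63 and 1.45 and then listed at 0 in both knockout libraries. By the estimated depth, that value rests on about 3 reads in each wild-type library.

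Genes that act on chromatin and transcription were among the lower ones. Tcf20, the closest relative of Rai1 in the genome, was at 65.3 and 67.2 against 42.1 and 48.7 (-0.54, SE 0.11, adjusted p = 0.0429). It was the single call among 21 genes of the Rai1 complex and related chromatin regulators, whose median of -0.05 was 0.01 without knockout replicate 1 and -0.19 without knockout replicate 2. Jade2, of a histone acetyltransferase complex, was at 4.75 and 5.97 against 3.41 and 3.23 (-0.61, adjusted p = 0.0247). Crebrf, the CREB3 regulatory factor, was at 9.86 and 9.23 against 6.36 and 5.99 (-0.59, SE 0.09, adjusted p = 0.0175), and the difference from the mean of the other sets was -0.66 (adjusted p = 0.0297). Of 26 tested genes of the Smith-Magenis interval none was called, and 22 circadian clock genes had 0 calls and a median of -0.11, which was -0.0005 without wild-type replicate 2.

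Further lower genes were Dsel (-0.62), an enzyme family member that shapes dermatan sulfate, Spock3 (-0.60), a proteoglycan, R3hcc1l (-0.59) and Crebl2 (-0.55), a leucine zipper protein. Dsel is the tested gene next to Cdh7 in the order of the GRCm38 annotation, and Spock3 lies 12 tested genes from Glra3. The remaining higher genes were Rras2 (0.73), a small GTPase, Sat1 (0.71), which breaks down polyamines, Lsm11 (0.62), of the U7 particle that processes histone mRNA, and Tspan15 (0.59), a membrane partner of the protease ADAM10.

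**Figure D3:**
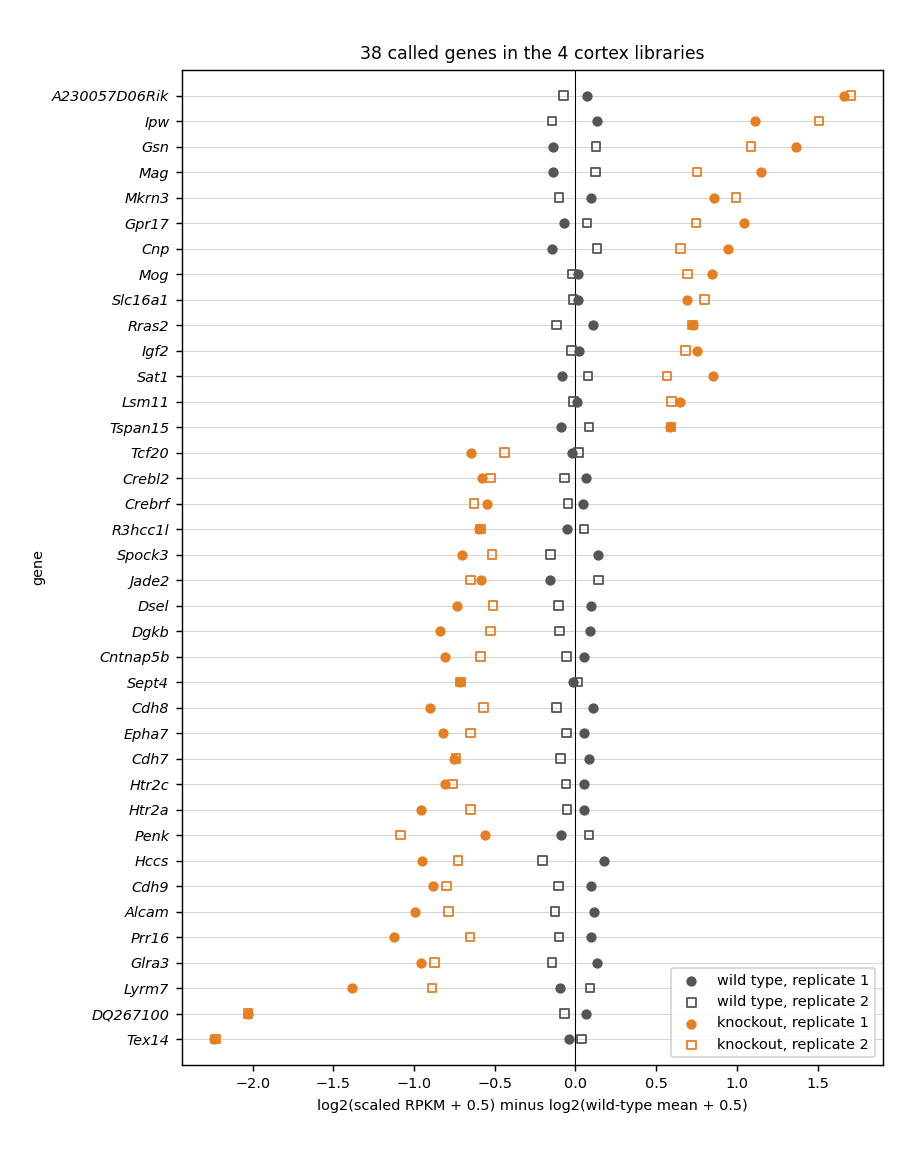
Called genes, 38 of the 39, in the 4 cortex libraries, as log2(scaled RPKM + 0.5) minus the log2 of the wild-type mean + 0.5. Grey symbols are wild type and orange symbols knockout, with filled circles for replicate 1 and open squares for replicate 2. Both orange symbols lie on the same side of both grey ones for all 38.

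Many of the lower genes were long. Their median genomic span, from first to last base of the RefSeq gene in GRCm38, was 151 kb, and 14 of 25 (56%) were over 100 kb, against 25.6 kb and 16.2% for all tested genes. Cntnap5b spans 718 kb, Cdh8 393 kb, Alcam 204 kb and Cdh7 163 kb. The higher genes had a median span of 16.9 kb, and 1 of 14 was over 100 kb. With the tested genes cut by span into 10 bins of equal size, the median log2 change went from 0.07 in the shortest bin to -0.05 in the longest, and 13 of the 25 lower genes were in the longest bin. The libraries did not share this slope. In knockout replicate 1 the median deviation from the mean of the 4 libraries went from 0.16 in the shortest to -0.12 in the longest bin. In knockout replicate 2 it went the other way, from -0.09 to 0.06, as it did in wild-type replicate 1, from -0.08 to 0.05. The part of this difference between libraries in the calls of long genes was not tested.

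**Figure D4:**
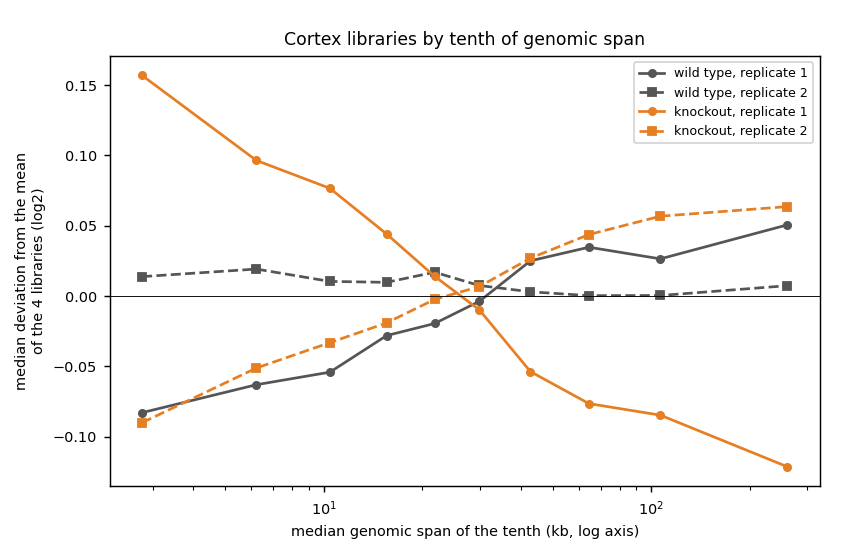
Median deviation of each cortex library from the mean of the 4 libraries (vertical axis, log2) over 10 bins of tested genes by genomic span (horizontal axis, kb, log axis). Knockout replicate 1 falls from 0.16 to -0.12, and knockout replicate 2 and wild-type replicate 1 rise.

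The other 3 sets do not share wild-type libraries with cortex, so the 39 genes were also read there. Of the 25 lower genes, 17 had negative estimates in striatum at 3 weeks, 18 in striatum at 12 weeks and 22 in hypothalamus, against 49.4%, 53.7% and 51.1% of all tested genes. Negative estimates in all 3 sets were found for 12 of the 25 (48%), against 12.7% of all genes. Among these 12 were Cdh7, Cdh8, Cdh9, Cntnap5b, Epha7, Spock3, Htr2a, Htr2c, Glra3, Penk and Prr16. Of the 14 higher genes, 3, 10 and 5 had positive estimates in those sets, against 50.6%, 46.3% and 48.9% of all tested genes, and A230057D06Rik was positive in all 3. No test was made of these shares, since genes are not replicates. A sign carries little for genes near 0 RPKM. Glra3 was at 0.0824 to 0.265 scaled RPKM in the striatal libraries. Tex14, at 0.0124 to 0.0241 there, counted as negative at 3 weeks with an estimate of -0.003. Cdh9 and Htr2a were the members called lower within striatum at 3 weeks, where 0.0365% of genes were, and again at 12 weeks (0.0548%), and none of the 14 was called higher at 12 weeks (0.00914%).

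Cdh9 was at 5.02 and 4.95 in wild-type and at 2.01 and 2.47 in knockout striatum at 3 weeks, and at 9.44 and 10.98 against 3.54 and 3.58 at 12 weeks. In striatum Htr2a was at 7.23 and 9.82 against 3.70 and 3.40 at 3 weeks and at 5.91 and 5.65 against 1.18 and 1.15 at 12 weeks, but at 4.28 and 4.51 against 4.48 and 3.76 in hypothalamus, where the groups overlapped. Htr2c had negative estimates in all 4 sets, of -0.78 in cortex, -0.60 and -0.69 in striatum at 3 and 12 weeks and -0.63 in hypothalamus. For Cdh9 and Htr2a, the cortex change and that of striatum at 3 weeks differed by 0.17 and 0.34 without passing (adjusted p = 0.673 and 0.449). Mag was at 149 and 109 in wild-type and at 112 and 117 in knockout striatum at 3 weeks, so its level there was above that of either cortex group.

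**Figure D5:**
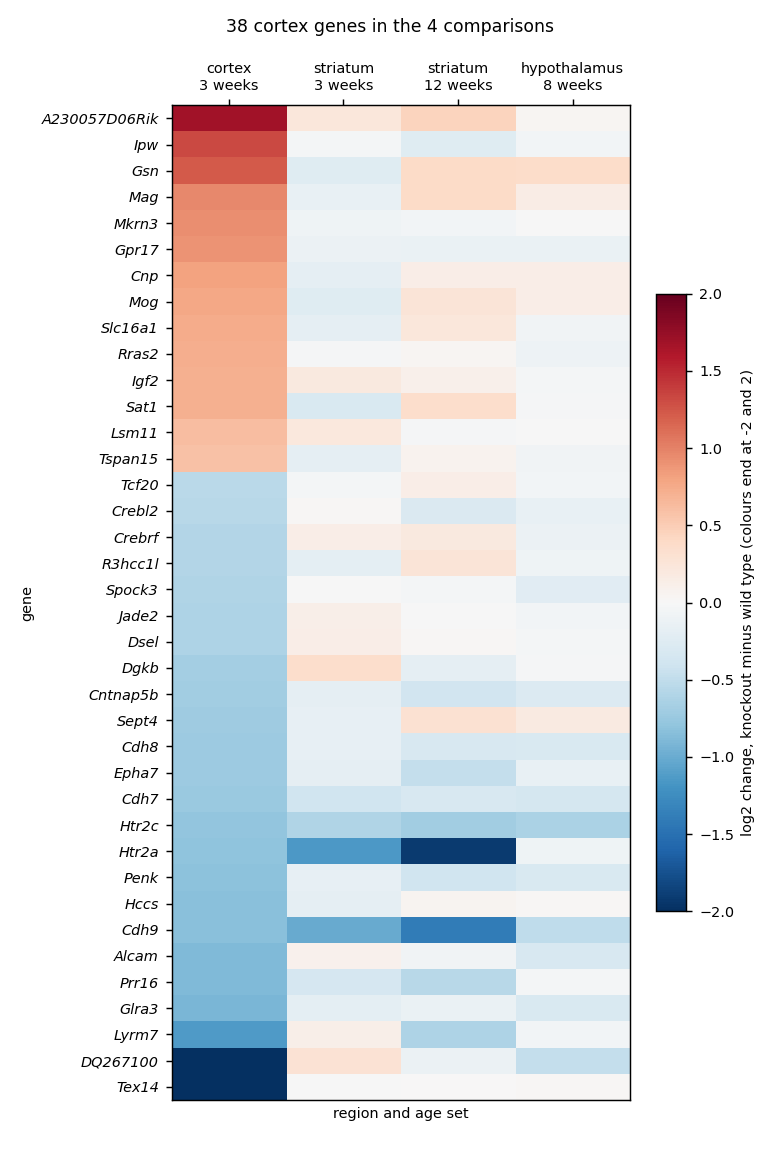
Log2 change (colour, ending at -2 and 2) of 38 of the 39 cortex genes in the 4 comparisons of the study. Cdh9, Htr2a and Htr2c are blue in cortex and in both striatum columns, while Tex14, at -2.23 in cortex, is near white in the other 3.

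Where the cortex effect differed from the rest was tested on the differences of effects themselves. Against striatum at 3 weeks, 4 genes passed (0.0365% of those tested), with A230057D06Rik and Gsn higher in cortex (0.0183%) and Tex14 and Alcam lower (0.0183%). Against the mean of the other 3 sets, 8 passed (0.0731%), with A230057D06Rik, Gsn and Dnlz higher (0.0274%) and Tex14, Rai1, Sept4, Alcam and Crebrf lower (0.0457%). Gsn was at 53.2 and 42.9 in wild-type and at 38.4 and 42.4 in knockout striatum at 3 weeks, and its cortex change exceeded the striatal one by 1.48 (SE 0.18, adjusted p = 0.00588). Dnlz, a helper of the mitochondrial chaperone, was at 3.60 and 3.45 against 5.63 and 4.82 in cortex, where it did not pass (0.51, adjusted p = 0.0832). It was at 8.23 and 8.26 against 5.17 and 6.45 in striatum at 3 weeks. None of the cadherins, Htr2a, Htr2c or the myelin genes other than Gsn passed either test, so a difference between cortex and the other sets was not shown for them.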

How the data were processed

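RNA sequencing of 16 libraries (2 per group, 8 groups) was deposited by the authors as RPKM per RefSeq gene symbol. The submitters' processing notes list CASAVA 1.8.2, cutadapt 1.6, TopHat2 and the build mm9. Not given in the sources used here are the TopHat2 version, the read counter, its strand setting and its treatment of reads that map to several places, so values of paralogs and of overlapping or antisense genes are uncertain. In single-exon genes, 76.4 to 80.8% of cortex values were whole reads within 0.05 read and 12.2 to 16.7% lay at steps of 0.5 read, so no count test was run.

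Values were divided by median-ratio factors from 8831 genes, and log2(scaled RPKM + 0.5) was fitted with limma 3.58.1 in R 4.3.3 as 8 group means over 16 libraries with a variance trend (residual df 8, prior df 6.33), so the spread is shared with the other sets. Calls are Benjamini-Hochberg adjusted p under 0.05 over 10945 genes, and 2 differences of effects were tested in the same fit. The procedure was checked on simulated data with independent noise for each gene and library. Shifts shared by many genes of a library were not simulated.

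The genes and the 44 lists were chosen with earlier results of these data known. Named were Rai1, called genes at 1 scaled RPKM or more in the higher group (up to 20 per direction), the members of lowest p in each list (up to 4), called genes of the differences and check genes, apart from some that are not reported here. Named after their values were seen were A330076H08Rik, B230209E15Rik, C230091D08Rik, Car2, Cdh2, Cdh10, Cdh11, Cdh18, Cdh20, Cdh24, Cldn11 and Crebl2. So were Mbp, Mtmr4, Pdgfra, Ppm1e, R3hcc1l, Rpph1, Snhg14, Sox10, Spock3, Ube3a, Med9 and Srebf1. Of 24176 symbols, 24044 matched RefSeq, whose GRCm38 annotation gave spans, gene order and promoters. Alternatives were other scalings, pseudocounts, filters and sample sets, library weights, no variance trend, a replicate block and each library left out.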

Additional observations from a re-analysis of the deposited data

Results flagged for a closer look

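The knockout effect in cortex differed from that in striatum at 3 weeks for 4 genes, by limma's test of the difference between effects with Benjamini-Hochberg adjustment. On the log2 scale, cortex minus striatum was 1.48 for Gsn, 1.45 for A230057D06Rik, -2.23 for Tex14 and -0.97 for Alcam. Tex14 was at 0.0124 to 0.0241 scaled RPKM in the striatal libraries of both genotypes.

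Against the mean effect of the other 3 sets, 8 genes differed. The difference was 1.45 for A230057D06Rik, 1.06 for Gsn and 0.82 for Dnlz. It was -2.24 for Tex14, -1.43 for Rai1, -0.82 for Sept4, -0.78 for Alcam and -0.66 for Crebrf. Of these, Rai1 and Dnlz were not called within cortex. Region, age, Cre driver and, for hypothalamus, strain change between the sets and cannot be told apart.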

How the results depend on the processing

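No called value changed direction among the genes that were followed across these settings. Of the called genes, Crebl2, R3hcc1l and Spock3 were not followed. The 39 cortex calls became 155 with quantile normalization, 65 with genes above 0 in at least 1 cortex library, 6 with RPKM as deposited, 4 with library weights, and 3 with the 3-week or the cortex libraries alone, and 3 to 818 with 1 library left out. The 4 calls against striatum at 3 weeks became 36, 12, 2 and 2 under the first 4 of these, 1 with the 3-week libraries, and 1 to 1072 with 1 library left out. The 8 calls against the other 3 sets became 49, 24, 4 and 2, then 13 with a pseudocount of 1, and 2 to 430 with 1 library left out. Without knockout replicate 2 the calls were 818, 1072 and 430, and without wild-type replicate 1 they were 3, 1 and 2. Where an arm was left with 1 library, it was assumed to vary like the other groups. The causes were not tested. Among values of single genes, 264 lost and 92 gained a call, 69 uncalled genes or list medians changed sign or moved beyond the spread, and 3332 values did neither.

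The labels give shared replicate numbers without saying that they pair samples. Same-numbered cortex libraries deviated in opposite directions (r = -0.384 across genes). With the replicate number as a block, 9, 1 and 2 genes were called. With the numbers crossed where that correlation was under -0.1, an alternative chosen after seeing the data, 120, 285 and 43 were called.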

Other observations

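Further gene lists had 0 calls in cortex by limma. Perineuronal net and extracellular matrix genes had 12 positive estimates among 15 tested, with a median log2 change of 0.19 and 6 at an unadjusted p under 0.05. That median was 0.29 without knockout replicate 1 and 0.07 without knockout replicate 2. Immature neuron genes had 12 positive estimates among 15 and a median of 0.15, which ran from 0.07 to 0.21 with 1 library left out. Activity-induced genes had 15 among 24 and a median of 0.13, which ran from -0.02 to 0.40 with 1 library left out. Ribosomal protein genes had 50 among 71 and a median of 0.09, which was -0.17 without knockout replicate 1 and 0.34 without knockout replicate 2. Cholesterol synthesis genes, which oligodendrocytes use to build myelin, had 14 among 22 and a median of 0.08, or 0.06 to 0.12 with 1 library left out. Synaptic vesicle genes had 22 negative estimates among 36 and a median of -0.04, which turned to 0.03 without knockout replicate 1 and was -0.15 without knockout replicate 2.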
